A study of Mus musculus with 3 samples.

Results

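Alveolar fibroblasts are the resident mesenchymal cells of the gas-exchange wall. They lie beneath alveolar type 2 cells and capillaries, lay down collagen, elastic fibres and basement membrane, and supply growth factors to the epithelium. Inmt, which encodes an indolethylamine N-methyltransferase, and Tcf21, a basic helix-loop-helix transcription factor of lung mesenchyme, mark them in mouse lung. Adventitial fibroblasts, which carry Pi16, surround larger vessels and airways, and contractile fibroblasts carry Acta2 and Tagln. The barcodes described here were chosen from single-cell libraries by measured values: 200 genes or more, no more than 20% of UMIs (unique molecular identifiers, 1 per captured transcript) from mitochondrial genes, a UMI in 3 or more of Col1a1, Col1a2, Col3a1, Dcn, Pdgfra, Serping1 and Mgp, no Ptprc or Pecam1, at most 1 UMI of Krt8, Krt18 and Prl2c3 together, at most 1 of Rgs5, at least 1 of Inmt and Tcf21 together, no Pi16, and at most 2 of Acta2 and Tagln together. That gave 129 of 33482 barcodes. The library Flox+ICI held 89 of them, Flox+RI 1 and CKO+RI 39.

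The 3 libraries came from mice that bore LLC1-sgLkb1 cells, Lewis lung carcinoma cells labelled as LKB1 knockdown, first as lung lesions after tail vein injection and later as a subcutaneous graft on the irradiated side. The design text names Sfrp2fl/fl and Sfrp2ΔCol1a2 hosts, and the titles' Flox and CKO are read here as these; Sfrp2 encodes a secreted Wnt modulator, and the name of the second strain points to deletion in cells that use the Col1a2 promoter, which includes fibroblasts. Flox+ICI received an immune checkpoint inhibitor alone, and Flox+RI and CKO+RI received radiation with it. The age of the mice, their number per library and which lesion each library came from are not given in the sources used here, and each group is 1 library, so differences between libraries have no replicates behind them and carry no p-value. All intervals are exact 95% intervals that cover counting error only.

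Depth differed between the libraries: Flox+ICI held 75543561 UMIs, Flox+RI 101840883 and CKO+RI 161250286, and the median barcode that passed the gene and mitochondrial limits held 3254.5, 2923 and 14467.5 UMIs. The members were closer, with a median of 2161 UMIs in Flox+ICI (609 to 7334), 1377 in the Flox+RI barcode and 3273 in CKO+RI (529 to 13055). Between 31 and 37 barcode sequences were shared by each pair of libraries, and none was a member. Levels below are UMIs summed over the member barcodes of a library and scaled to their total, as CPM (1000000 times their share of all UMIs in those barcodes). The 2 libraries with more than 1 member differ in both the host label and radiation, which cannot be told apart.

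The members were nearly missing from Flox+RI. Of the barcodes kept by the gene and mitochondrial limits, they were 0.832% in Flox+ICI (89 of 10692, 0.669% to 1.02%) and 0.00765% in Flox+RI (1 of 13073, 0.000194% to 0.0426%). In CKO+RI they were 0.432% (39 of 9036, 0.307% to 0.590%). The share in Flox+RI was 109-fold lower than in Flox+ICI (19.0 to 4346), and that in CKO+RI was 56.4-fold higher than in Flox+RI (9.55 to 2285). Both folds rest on the 1 barcode of Flox+RI. With every barcode thinned to 1000 UMIs before the rule, the shares were 0.938%, 0.0337% and 0.478%, so that Flox+ICI was 27.8-fold (9.22 to 137.7) and CKO+RI 14.2-fold (4.52 to 71.7) above Flox+RI. Since the rule chose these barcodes, the shares are a description. Of the barcodes that passed the fibroblast part of the rule, members were 40.5%, 2.78% and 27.7% (Flox+ICI, Flox+RI, CKO+RI). That part was not alike across the libraries. Its gene Dcn had a UMI in 3.66%, 1.07% and 35.8% of all kept barcodes, and was at 6.55, 31.1 and 140 CPM in neutrophil barcodes. A share of barcodes does not tell fewer cells in the tissue from fewer cells released or sampled.

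Pi16 barcodes and contractile barcodes of the same gate were ordered differently across the libraries. Pi16 barcodes, the adventitial type, numbered 64, 2 and 40 in Flox+ICI, Flox+RI and CKO+RI, the same order as the members by share (0.599%, 0.0153% and 0.443%). Contractile barcodes, with more than 2 UMIs of Acta2 and Tagln, numbered 17, 23 and 7, and their share in Flox+RI was 1.11 times that in Flox+ICI (0.566 to 2.21). Barcodes without Inmt or Tcf21 numbered 50, 10 and 54. Cells of normal alveoli had the same order as the members: alveolar type 2 barcodes were 2.82%, 0.719% and 1.63% of kept barcodes, and Car4 Ednrb capillary endothelium was 0.860%, 0.0535% and 0.221%. The share in Flox+RI was 3.93-fold lower than in Flox+ICI for type 2 cells (3.11 to 5.01) and 16.1-fold lower for this endothelium (7.49 to 41.1). Both of these alveolar gates were chosen after the data were seen. The order was not particular to alveolar cells. Neutrophil barcodes were 9.95%, 2.69% and 5.53% of kept barcodes, 3.70-fold lower in Flox+RI than in Flox+ICI (3.27 to 4.18). The alveolar cells and the neutrophils thus moved with the members across the libraries, and the part of the amount of normal lung in the samples was not tested.

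**Figure D1:**
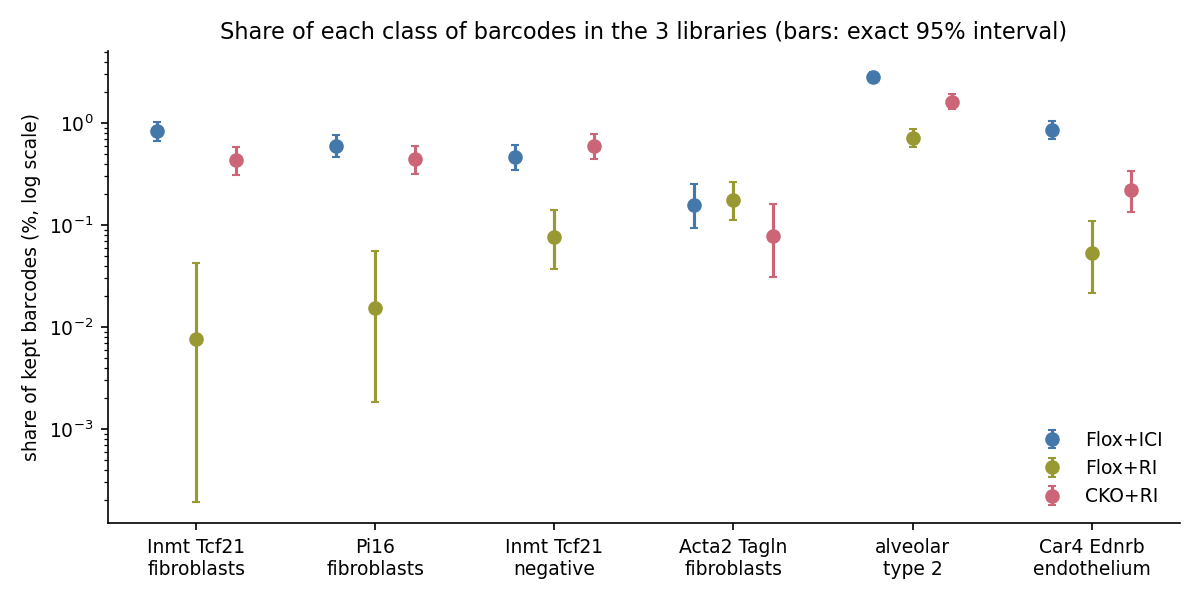
Share of kept barcodes (percent, log axis) in 6 classes for the 3 libraries; points are shares and bars are exact 95% intervals. The members were at 0.832%, 0.00765% and 0.432% in Flox+ICI, Flox+RI and CKO+RI, while contractile fibroblasts were at 0.159%, 0.176% and 0.0775%.

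The tumour-cell limit of the rule bears on the order of Flox+ICI and CKO+RI and on the size of the folds to Flox+RI. Flox+RI stayed the lowest without it. At this step 220 of 441 barcodes remained in Flox+ICI, 38 of 511 in Flox+RI and 143 of 1905 in CKO+RI. Without any limit on Krt8, Krt18 and Prl2c3, Flox+ICI had 104 barcodes past the rule (0.973%), Flox+RI 4 (0.0306%) and CKO+RI 104 (1.15%). Flox+ICI was then 31.8-fold (12.1 to 119) and CKO+RI 37.6-fold (14.3 to 141) above Flox+RI, in place of 109-fold and 56.4-fold under the rule. The share in CKO+RI was 1.93-fold lower than in Flox+ICI under the rule (1.31 to 2.89) and above it without this limit, where the intervals (0.795% to 1.18% and 0.941% to 1.39%) overlapped. Krt8 was also common in cells that should lack it, with a UMI in 16.1%, 27.8% and 38.0% of neutrophil barcodes of Flox+ICI, Flox+RI and CKO+RI, whose median depths were 1303, 895 and 2208.5 UMIs. Over all kept barcodes, any Inmt or Tcf21 UMI occurred in 3.54%, 0.214% and 3.02%.

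All 4 markers of the label, Inmt, Tcf21, Pdgfra and Col1a2, are used by the rule, so their levels describe the selection and do not check the label. Inmt reached 3249.95 CPM in Flox+ICI, 1 UMI in the Flox+RI barcode and 3256 CPM in CKO+RI, beside 8.48 CPM and 2.70 CPM in neutrophil barcodes of Flox+ICI and CKO+RI. Tcf21 was at 134 and 172 CPM, Pdgfra, the receptor for platelet-derived growth factor A, at 481 and 595 CPM, and Col1a2, a type I collagen chain, at 999 and 748 CPM in Flox+ICI and CKO+RI. The Flox+RI barcode held 6 Col1a2 UMIs and none of Tcf21 or Pdgfra. Xist, the RNA of the inactive X chromosome, had a UMI in 55.1% of members of Flox+ICI and 61.5% of CKO+RI, against 11.7% and 13.6% of neutrophil barcodes. In GRCm38, with the GENCODE M21 annotation, Inmt lies on chromosome 6 from 55170626 to 55175043, Tcf21 on chromosome 10 from 22817281 to 22820174, Pdgfra on chromosome 5 from 75152292 to 75198215 and Col1a2 on chromosome 6 from 4504814 to 4541544.

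Inmt carried most of the selection. Of the members, 67 of 89 in Flox+ICI and 21 of 39 in CKO+RI had Inmt only, 1 and 3 had Tcf21 only, and 21 and 15 had both. At the edge of the rule, 11 members of Flox+ICI, the Flox+RI member and 6 members of CKO+RI held a single UMI of these genes, while 35, 0 and 22 held 10 or more. Just outside, 48 of 64 Pi16 barcodes of Flox+ICI and 34 of 40 of CKO+RI also had Inmt or Tcf21, with Inmt at 1791 and 2145 CPM over all Pi16 barcodes. A UMI of Inmt is therefore shared with Pi16 fibroblasts in these libraries. Pi16 UMIs also occurred in 19.0% of neutrophil barcodes of Flox+ICI and 26.8% of those of CKO+RI. Neutrophil barcodes held 88.3, 43.3 and 53.1 CPM of Pi16 in Flox+ICI, Flox+RI and CKO+RI. Over all kept barcodes Pi16 was lower in each library, at 12.7, 2.28 and 4.94 CPM. Whether the neutrophils express Pi16 themselves was not tested, so these UMIs are no measure of free RNA.

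Sfrp2, the gene targeted in the CKO hosts (chromosome 3, 83766321 to 83774316), could not check the labels in these cells. It had 1 UMI in the members of Flox+ICI and 0 in the members of Flox+RI and CKO+RI, which for the 39 barcodes of CKO+RI allows a share with a UMI of up to 7.69% at a floor of 3 barcodes and of up to 9.03% by the exact interval. Over all kept barcodes it had 24, 12 and 46 UMIs in Flox+ICI, Flox+RI and CKO+RI, and over the whole fibroblast gate 3, 0 and 2. Stk11, which encodes LKB1, was at 60.1 CPM in members of Flox+ICI (32.0 to 103) and 42.9 CPM in members of CKO+RI (17.3 to 88.4); the knockdown label belongs to the tumour line.

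The alveolar fibroblast programme, a list of 21 genes other than Inmt and Tcf21, differed little in level between the 2 libraries that could be compared. It summed to 10559 CPM in Flox+ICI and 10075 CPM in CKO+RI, with a median of 21 UMIs per member in Flox+ICI (0 to 81) and 33 in CKO+RI (1 to 130). In CKO+RI over Flox+ICI, 0 of its 17 genes measured (20 UMIs or more over both libraries) were 2-fold higher and 0 were 2-fold lower, with a median log2 ratio of 0.03. Over all 3592 genes measured so, 205 (5.71%) were at least 2-fold higher in CKO+RI and 262 (7.29%) at least 2-fold lower, with a median log2 ratio of -0.01. These shares are the background for the counts of every gene list below. Log2 ratios have 0.5 counts added to each side, and 2-fold means a log2 ratio of at least 1 in either direction. With members thinned to 1000 UMIs each, 43 genes were higher and 110 lower. Fewer genes reached 20 UMIs after thinning, so these counts cannot be set against 205 and 262.

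Several programme genes belong to the cytoskeleton. Limch1, a regulator of non-muscle myosin, was at 2228 CPM in Flox+ICI, 0 UMIs in Flox+RI and 1864 CPM in CKO+RI, and Macf1, which links microtubules and actin, at 2080.3 and 2122 CPM in Flox+ICI and CKO+RI. Nebl, which encodes the actin-binding protein nebulette, was at 1073 and 883 CPM. The microfibril gene Mfap4 was at 1054 CPM in Flox+ICI, 5 UMIs in the Flox+RI barcode and 1116 CPM in CKO+RI. Npnt, which encodes nephronectin, was at 582 and 687 CPM, and Itga8, a chain of the integrin that binds it, at 282 and 300.5 CPM. The levels of these 6 genes in CKO+RI were between 0.823 and 1.18 times those in Flox+ICI. Cdh11, a mesenchymal cadherin, had the higher level in CKO+RI, at 442 against 245 CPM, a ratio of 1.80 (1.25 to 2.62). Fgf10, the ligand that drives growth of lung epithelium, was at 162 and 98.1 CPM (ratio 0.606, 0.313 to 1.12), and the lymphatic growth factor gene Vegfd at 254 and 153 CPM (ratio 0.603, 0.360 to 0.984).

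**Figure D2:**
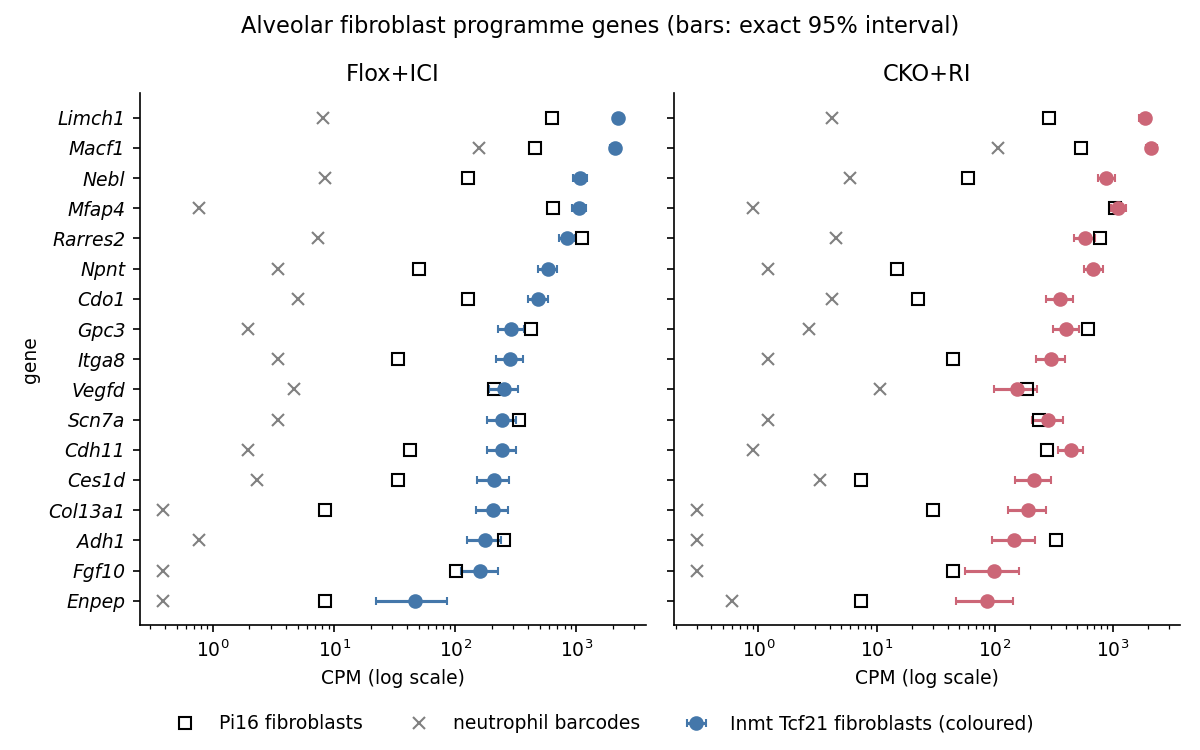
Levels (CPM, log axis) of the 17 measured alveolar programme genes in Flox+ICI (left) and CKO+RI (right); coloured points with exact 95% intervals are the members, open squares the Pi16 fibroblasts and crosses the neutrophil barcodes. Npnt was at 582 and 687 CPM in the members and at 50.7 and 14.9 CPM in the Pi16 fibroblasts.

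The programme tracked the number of Inmt and Tcf21 UMIs in both libraries. In Flox+ICI it summed to 4104 CPM in members with 1 such UMI, 9404 CPM in those with 2 to 9 and 14434 CPM in those with 10 or more. In CKO+RI the same classes had 4271, 8444 and 13185 CPM. Barcodes of the fibroblast gate just outside the rule, with none of these UMIs, had 1873 CPM in Flox+ICI and 556 CPM in CKO+RI. Npnt followed the same order, from 197 through 353 to 987 CPM in Flox+ICI and from 297 through 505 to 933 CPM in CKO+RI. Fmo2, which encodes a flavin-containing monooxygenase and is no member of the list, was at 928, 3110 and 4922 CPM in the 3 classes of Flox+ICI and at 356, 1055 and 3800 CPM in those of CKO+RI. The median depth of these classes ran from 2089 to 2339 UMIs in Flox+ICI and from 2831 to 7324 in CKO+RI. Col3a1 ran the other way, from 1265 through 983 to 367 CPM in Flox+ICI and from 1987 through 1354 to 746 CPM in CKO+RI. These genes were counted in the barcodes that the rule chose, so the order is a description.

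**Figure D3:**
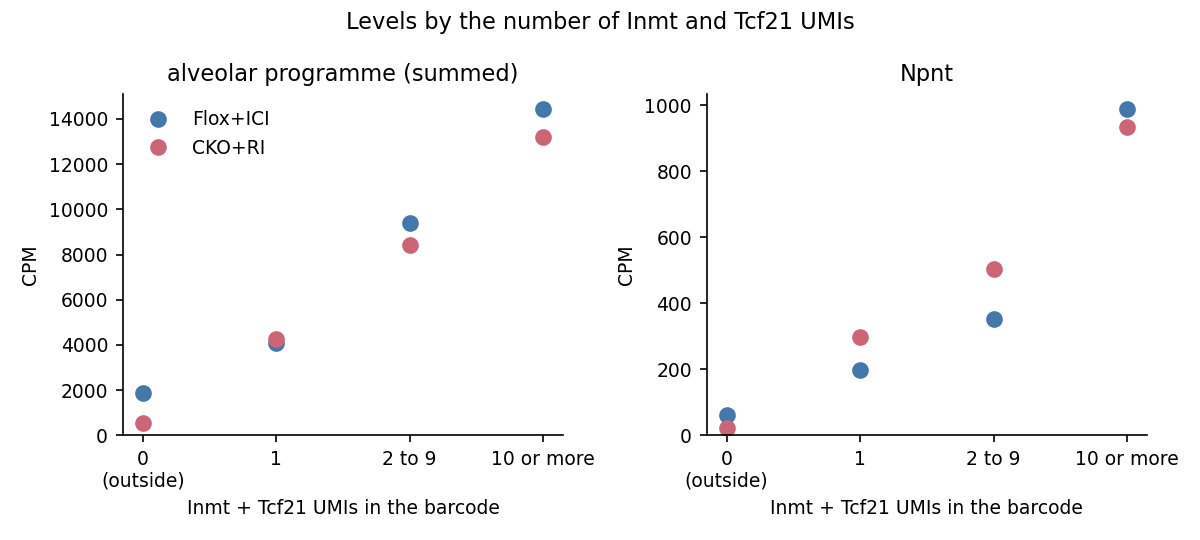
Summed level of the alveolar programme (left) and of Npnt (right), in CPM, in fibroblast gate barcodes by their number of Inmt and Tcf21 UMIs; points are Flox+ICI and CKO+RI, and the class at 0 lies outside the rule. In Flox+ICI the programme was at 1873 CPM outside the rule and at 14434 CPM with 10 or more UMIs.

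Members were also set against Pi16 fibroblasts, a comparison chosen after the data were seen, because no library held both 20 contractile barcodes and more than 1 member. The 10 genes with the largest lower ratio over Flox+ICI and CKO+RI were Gria1, Npnt, Adra1a, Nebl, Kitl, Ncald, Itga8, Col13a1, Ces1d and Astn2. Kitl was low in Pi16 barcodes but not particular to the members. It was at 268 and 110.4 CPM in members, 180 and 148 CPM over all kept barcodes, and 228 and 229 CPM in gate barcodes without Inmt or Tcf21. In contractile barcodes of Flox+ICI, Astn2 was at 230 CPM and Ncald at 130 CPM, beside 203 and 129 CPM in members. Npnt, Nebl and Itga8 were at 280, 410 and 230 CPM there, below 582, 1073 and 282 CPM in members. In CKO+RI contractile barcodes were below members, at 109.7, 68.6, 54.8 and 68.6 CPM of Astn2, Ncald, Npnt and Nebl, with 0 UMIs of Itga8. Gria1, an AMPA glutamate receptor subunit, was at 236 CPM in members and 8.45 CPM in Pi16 barcodes of Flox+ICI, and at 221 CPM with 0 UMIs in Pi16 barcodes of CKO+RI. Adra1a, the alpha-1A adrenergic receptor, was at 148 and 16.9 CPM in Flox+ICI and 166 CPM in CKO+RI, where Pi16 barcodes again had 0 UMIs. Col13a1, a membrane-anchored collagen, was at 203 CPM against 8.45 in Flox+ICI and 190.1 against 29.8 in CKO+RI. The carboxylesterase gene Ces1d was at 208 against 33.8 CPM and 215 against 7.45 CPM. The 10 genes that led the other way were Pi16 itself, Ackr3, Il33, Lsamp, Opcml, Axl, Igfbp5, Fbln2, Ly6c1 and Cd34. Ackr3, a scavenging chemokine receptor, was at 152 and 379.8 CPM in Pi16 barcodes of Flox+ICI and CKO+RI, with 3 and 1 UMIs in the members. Il33, which encodes an alarmin cytokine, was at 144 and 379.8 CPM in Pi16 barcodes and at 13.9 and 49.1 CPM in members.

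Against all kept barcodes, the 20 genes with the largest lower ratio included Mamdc2, Inmt, Sult5a1, Nox4, Plcxd3, Adamtsl2, Svep1, Prelp, Gria1, Lox, Adamts17, Dpep1, Ogn, Mfap4, Abca8a, Adamts15, C7, Limch1 and Fhl1, each at least 96.9 times its level over all kept barcodes in both libraries. This ranking took genes with a UMI in at least 25% of the members of each library, and the rank of Inmt was set by the rule. The Flox+RI barcode was left out of this ranking, since 1 barcode gives no spread. Nox4, an NADPH oxidase, was at 518 CPM in Flox+ICI and 607 CPM in CKO+RI. Lox, which cross-links collagen and elastin, was at 264 and 239 CPM, and Ogn, a small leucine-rich proteoglycan, at 952 and 822 CPM. Several of these genes are shared with Pi16 fibroblasts: Dpep1, a membrane dipeptidase, was at 744 CPM in members and 1141 CPM in Pi16 barcodes of Flox+ICI.

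Transcription factors of lung mesenchyme other than Tcf21 showed 1 difference. Of 18, 8 were measured, 1 was 2-fold higher in CKO+RI and 0 were 2-fold lower, against 5.71% and 7.29% over all genes. Tbx2, a T-box factor, was at 134 CPM in Flox+ICI and 269.8 CPM in CKO+RI, a ratio of 2.01 (1.23 to 3.34). Its relative Tbx4, which marks lung mesenchyme, was at 157 and 172 CPM, and the nuclear receptor gene Nr2f2 at 411 and 442 CPM.

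Adventitial, peribronchial and lipofibroblast genes set the members among lung fibroblasts. Of 15 adventitial genes, 7 were measured, 0 were 2-fold higher and 1 lower in CKO+RI (5.71% and 7.29% over all genes). The list had a median log2 ratio of -0.64. The gene past 2-fold was Igfbp6, which binds insulin-like growth factors, at 1262 CPM in Flox+ICI and 484 CPM in CKO+RI, 2.61-fold lower (2.02 to 3.39). Clec3b, which encodes tetranectin, was at 666 and 405 CPM in members and at 2155 and 2465 CPM in Pi16 barcodes. None of the 9 peribronchial genes reached 20 UMIs in the members. Of 12 lipofibroblast genes 8 were measured, and 0 were 2-fold higher and 3 lower in CKO+RI (5.71% and 7.29% over all genes). The lower ones were Plin2, a lipid droplet coat protein, the fatty acid carrier Fabp5, and Angptl4, an inhibitor of lipoprotein lipase. Angptl4 was at 291 and 123 CPM, 2.37-fold lower (1.42 to 4.15). In Flox+ICI 19 of 51 Plin2 UMIs and 23 of 42 Fabp5 UMIs came from 1 barcode each, and without the top barcodes the ratio of Fabp5 was 0.559. Without the 4 members of Flox+ICI and 1 of CKO+RI that held 20 or more UMIs of macrophage and MHC class II genes, the ratio was 0.533 for Plin2 (0.227 to 1.16) and 0.602 for Fabp5 (0.225 to 1.47), so neither passed 2-fold and Angptl4 was the 1 gene of the list that did. Retinoid genes had 5 of 13 measured, with 0 higher and 1 lower: Lrat, which esterifies retinol for storage, was at 102 and 30.7 CPM, 3.32-fold lower (1.23 to 11.2).

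Matrix genes differed little as groups. Of 14 interstitial collagen genes, 8 were measured and 0 passed 2-fold in either direction, with a median log2 ratio of 0.30. Col3a1 was at 781 CPM in Flox+ICI, 2 UMIs in Flox+RI and 1165 CPM in CKO+RI (ratio 1.49, 1.21 to 1.85), and Col5a2, a chain of the collagen that nucleates type I fibrils, at 176 and 343 CPM (ratio 1.95, 1.27 to 3.03). Col1a2, a rule gene, had a ratio of 0.749 (0.595 to 0.940). Neutrophil barcodes had 153 and 319 CPM of Col3a1, a difference in the same direction in cells that should lack it. Elastic fibre genes had 11 of 15 measured and 0 past 2-fold, with elastin itself, Eln, at 1299 and 1109.9 CPM. Of 11 measured basement membrane genes, Col18a1 was 2-fold higher in CKO+RI and the laminin linker Nid1 2-fold lower, at 282 and 123 CPM. Of 6 measured small leucine-rich proteoglycans, Lum was higher in CKO+RI (ratio 2.46, 1.24 to 5.10), but 18 of its 26 UMIs there came from 1 barcode, and without the top barcodes the ratio was 1.52. Over all other kept barcodes the ratio of Lum was 40.7.

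Genes of activated or cancer-associated fibroblasts passed 2-fold more often than all genes did: 5 of 7 measured were 2-fold higher in CKO+RI and 0 lower, with a median log2 ratio of 1.20, against 5.71% and -0.01 over all genes. The other 11 of the 18 stayed under 20 UMIs, with Postn at 1 UMI in each library and Cthrc1 at 1 and 0. Mmp14, a membrane metalloproteinase that cleaves collagen, was at 69.3 CPM in Flox+ICI, 0 UMIs in Flox+RI and 269.8 CPM in CKO+RI, a ratio of 3.89 (2.12 to 7.53). Runx1, a Runt-family transcription factor, was at 92.5 and 325 CPM, a ratio of 3.52 (2.07 to 6.21), and its log2 ratio of 1.79 was 0.85 among members with 2 or more Inmt and Tcf21 UMIs. Fn1, which encodes fibronectin, was at 703 and 1177 CPM, a ratio of 1.68 (1.35 to 2.09).

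Levels in other cells and single barcodes move with several of these genes, and their part in the list was not tested. Neutrophil barcodes had more Spp1 than the members, at 543 CPM in Flox+ICI and 1618 CPM in CKO+RI against 217 and 491 CPM. Runx1 had 218 and 158 CPM there, and with every barcode thinned to 1000 UMIs it had a UMI in 3.57% of 84 members of Flox+ICI and 16.2% of 37 members of CKO+RI, against 15.9% and 15.7% of neutrophil barcodes. Neutrophils may express Runx1 themselves, so this is no measure of free RNA. Thinned likewise, Mmp14 had a UMI in 5.95% and 10.8% of members and in 2.03% and 2.79% of neutrophil barcodes; unthinned, the shares in members were 12.4% and 46.2% for Mmp14, 15.7% and 41.0% for Runx1. The thinned shares of Mmp14 rest on few barcodes, so no difference is read from them. Without the 4 members of Flox+ICI and 1 of CKO+RI that held 20 or more UMIs of macrophage and MHC class II genes, the ratio was 4.13 for Mmp14 and 4.16 for Spp1, which was 2.26 (1.56 to 3.31) with them. For Timp1, an inhibitor of metalloproteinases, 29 of 47 UMIs in CKO+RI came from 1 barcode, and without the top barcode of each library its ratio was 1.19. Ltbp2, of elastic microfibrils, had a ratio of 2.36 (0.981 to 6.05), an interval that includes 1.

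The PDGF and IGF axis had 3 of 6 measured genes 2-fold higher in CKO+RI and 0 lower, against 5.71% and 7.29% over all genes. Without the members rich in macrophage and MHC class II UMIs, 1 was higher, and the calls of Igfbp3 and Igfbp4 were lost. Pdgfrb, the other PDGF receptor, was at 32.4 and 123 CPM (ratio 3.79, 1.54 to 10.6), with 7 of its 20 UMIs in CKO+RI from 1 barcode. Igfbp4 was at 606 and 1233 CPM (ratio 2.04, 1.63 to 2.56), and Igfbp3 had 12 and 19 UMIs (ratio 2.10, 0.968 to 4.74). The IGF receptor gene Igf1r was the lower one, at 435 and 221 CPM, a ratio of 0.508 (0.336 to 0.753). Among niche growth factors, of which 12 of 22 were measured, 1 was 2-fold higher and 3 lower (5.71% and 7.29% over all genes). Fgf7, which encodes keratinocyte growth factor, was at 74.0 and 153 CPM (ratio 2.07, 1.06 to 4.15). Slit2, a guidance ligand for Robo receptors, was at 670.3 CPM in 53.9% of members of Flox+ICI and at 276 CPM in 48.7% of those of CKO+RI, 2.43-fold lower (1.73 to 3.47). Kitl, the ligand of the receptor Kit, was at 268 and 110.4 CPM, 2.43-fold lower (1.41 to 4.38), beside 93.7 and 89.7 CPM in neutrophil barcodes. For Hgf 13 of 20 UMIs in Flox+ICI came from 1 barcode, without which and the top barcode of CKO+RI the ratio was 0.947.

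Inflammatory genes were mixed: 13 of 19 were measured, 2 were 2-fold higher in CKO+RI and 2 lower (5.71% and 7.29% over all genes). Their median log2 ratio was -0.03. Vcam1, an adhesion molecule for leukocytes, was at 102 CPM in Flox+ICI and 325 CPM in CKO+RI (ratio 3.20, 1.91 to 5.52), with 6.55 and 10.2 CPM in neutrophil barcodes. Icam1, another such molecule, was the lower one in CKO+RI, at 365 and 208 CPM (ratio 0.571, 0.370 to 0.864). Ccl2, a monocyte chemoattractant, was at 46.2 and 221 CPM, but neutrophil barcodes held 242 and 602 CPM. Thinned to 1000 UMIs, Ccl2 had a UMI in 3.57% and 24.3% of members and in 9.14% and 25.3% of neutrophil barcodes. Unthinned, the shares were 11.2% and 53.8% in members. Whether the neutrophils express Ccl2 themselves was not tested, so its UMIs there are no measure of free RNA. Saa3 and Il6 were lower in CKO+RI, with 102 and 29 UMIs for Saa3, of which 62 in Flox+ICI came from 1 barcode, and 23 and 6 for Il6.

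Some complement and interferon gamma genes were at lower levels in CKO+RI. Of 9 measured complement genes 0 were 2-fold higher and 2 lower (5.71% and 7.29% over all genes). C3, the central component, was at 2691 CPM in Flox+ICI, 4 UMIs in Flox+RI and 1165 CPM in CKO+RI, 2.31-fold lower (1.96 to 2.73). Cfb, its partner in the alternative pathway, was at 185 and 42.9 CPM, 4.31-fold lower (1.91 to 11.4). Without the members rich in macrophage and MHC class II UMIs the ratio of C3 was 0.533 (0.447 to 0.633), under 2-fold. The ratio of C3 was 0.512 over all other kept barcodes and 0.308 in Pi16 fibroblasts. Of 17 measured MHC class I and interferon gamma genes, 0 were 2-fold higher and 4 lower (7.29% over all genes), with a median log2 ratio of -0.34. Iigp1, an interferon-inducible GTPase, was at 1595 CPM in 48.3% of members of Flox+ICI and 558 CPM in 38.5% of those of CKO+RI, 2.86-fold lower (2.26 to 3.64); 41 of its 91 UMIs in CKO+RI came from 1 barcode. Without the top barcode of each library its ratio was 0.217. The ratio of Iigp1 was 0.269 over all other kept barcodes. Gbp2, a guanylate-binding protein gene, had 24 and 5 UMIs, and H2-Q7, a non-classical class I gene with near-identical copies that make its count uncertain, 39 and 14. Without the members rich in macrophage and MHC class II UMIs (4 of Flox+ICI, 1 of CKO+RI), H2-Q7 had 16 and 10 UMIs (ratio 0.799, 0.324 to 1.87) and its call was lost. Cxcl9, a ligand of CXCR3, had 73 UMIs in Flox+ICI, 43 of them in 1 barcode, and 1 in CKO+RI. Class I genes B2m and H2-D1 had ratios of 0.928 (0.751 to 1.14) and 1.11 (0.896 to 1.38). Type I interferon genes had 5 of 14 measured, 1 of them, Isg15, 2-fold higher with an interval that includes 1.

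The MHC class II difference rested on a single barcode. Of 4 measured, 3 were 2-fold higher in CKO+RI and 0 lower, with a median log2 ratio of 1.28. Cd74, the class II invariant chain, had 167 UMIs in CKO+RI, 160 of them in 1 barcode, and H2-Eb1 38 of 42 in 1 barcode. Without the top barcode of each library the ratio was 0.157 for Cd74 and 0.482 for H2-Eb1, both below 1. That barcode held 319 UMIs of macrophage and MHC class II genes, against a median of 1, and was 1 of the 2 CKO+RI members with high doublet scores. In Flox+ICI 4 members held 20 or more such UMIs, the highest 374, and 256 of 339 Lyz2 UMIs came from 1 of them. Without these 4 members and that 1 of CKO+RI, Cd74 had 11 and 7 UMIs in Flox+ICI and CKO+RI (ratio 0.814, 0.267 to 2.30) and H2-Eb1 had 7 and 4 (ratio 0.731, 0.157 to 2.87), so no difference in either direction was detectable. Macrophage markers summed to 2168 CPM in members of Flox+ICI and 521 CPM in CKO+RI, with 0 of 8 at 0.

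Immediate early genes, induced within minutes of a stimulus and also by tissue dissociation, had all 18 measured. Of them, 0 were 2-fold higher in CKO+RI and 4 lower (5.71% and 7.29% over all genes), with a median log2 ratio of -0.28. Atf3 was at 712 CPM in Flox+ICI and 251 CPM in CKO+RI, a ratio of 0.353 (0.244 to 0.501), and Klf4 at 472 and 215 CPM, 2.20-fold lower (1.48 to 3.32). Fos was at 2329.98 CPM, 5 UMIs in the Flox+RI barcode and 1171 CPM (ratio 0.503, 0.423 to 0.595), and Jun at 2238 and 1367 CPM (ratio 0.611, 0.519 to 0.718). In Pi16 fibroblasts the ratios were 1.44 for Atf3, 1.13 for Fos and 1.23 for Jun. The difference between these fibroblasts and the members was not tested. Of the 5 measured p53 targets, Cdkn1a, the cell cycle inhibitor p21, was 2-fold lower in CKO+RI: 569 CPM in Flox+ICI and 172 CPM in CKO+RI, 3.31-fold lower (2.18 to 5.19). Its ratio was 0.365 over all other kept barcodes, and Phlda3 and Bax, other p53 targets, had ratios of 1.12 (0.684 to 1.83) and 0.847 (0.479 to 1.47).

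TGF-beta genes had 15 of 19 measured, 0 of them 2-fold higher and 2 lower in CKO+RI (5.71% and 7.29% over all genes). Their median log2 ratio was -0.46. Of the lower ones, Thbs1, an activator of latent TGF-beta, was at 157 and 73.6 CPM, 2.14-fold lower (1.08 to 4.53). The receptors Tgfbr2 and Tgfbr3 were at 481 and 546 CPM and at 578 and 368 CPM. Hypoxia and glycolysis genes had 11 of 16 measured, 4 higher and 1 lower (5.71% and 7.29% over all genes). The 4 were Eno1, Pgk1, Mif and Tpi1, with 5 and 25 UMIs for Eno1 and 50.9 and 178 CPM for Pgk1. Over all other kept barcodes Eno1 and Pgk1 had ratios of 2.14 and 1.97, and neutrophil barcodes held 279 and 590.2 CPM of Pgk1, above the members. The lower gene was Adm, which encodes adrenomedullin, at 180.3 and 61.3 CPM, with a ratio of 4.01 over all other kept barcodes. Heat shock genes had 10 of 10 measured and 1 higher (Hspa1a, whose counts a near-identical copy makes uncertain), metallothionein and oxidative stress genes 8 of 12 and 0 past 2-fold, Wnt antagonists and targets 2 of 12 and 0 past 2-fold, and cell cycle genes 2 of 17, with Top2a higher through 11 of 17 UMIs in 1 barcode and a ratio of 1.59 without the top barcodes.

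Several of these counts move without the 4 members of Flox+ICI and 1 of CKO+RI rich in macrophage and MHC class II UMIs. Tbx2, Igfbp4, Tpi1 and Hspa1a then had ratios between 1.86 and 1.99, Igfbp3 and Hgf had 2.02 and 0.497 with log2 ratios under 1 in size, and Cxcl9 and Isg15 fell under 20 UMIs. The PDGF and IGF axis thus had 1 gene higher in place of 3, and MHC class I and interferon gamma genes had 2 lower in place of 4. In the alveolar programme Enpep passed 2-fold upwards (ratio 2.56, 0.966 to 7.49) and Fgf10 downwards (ratio 0.451, 0.213 to 0.893). The 5 higher genes of the activated fibroblast list stayed past 2-fold, as did Cdkn1a and Lrat.

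**Figure D4:**
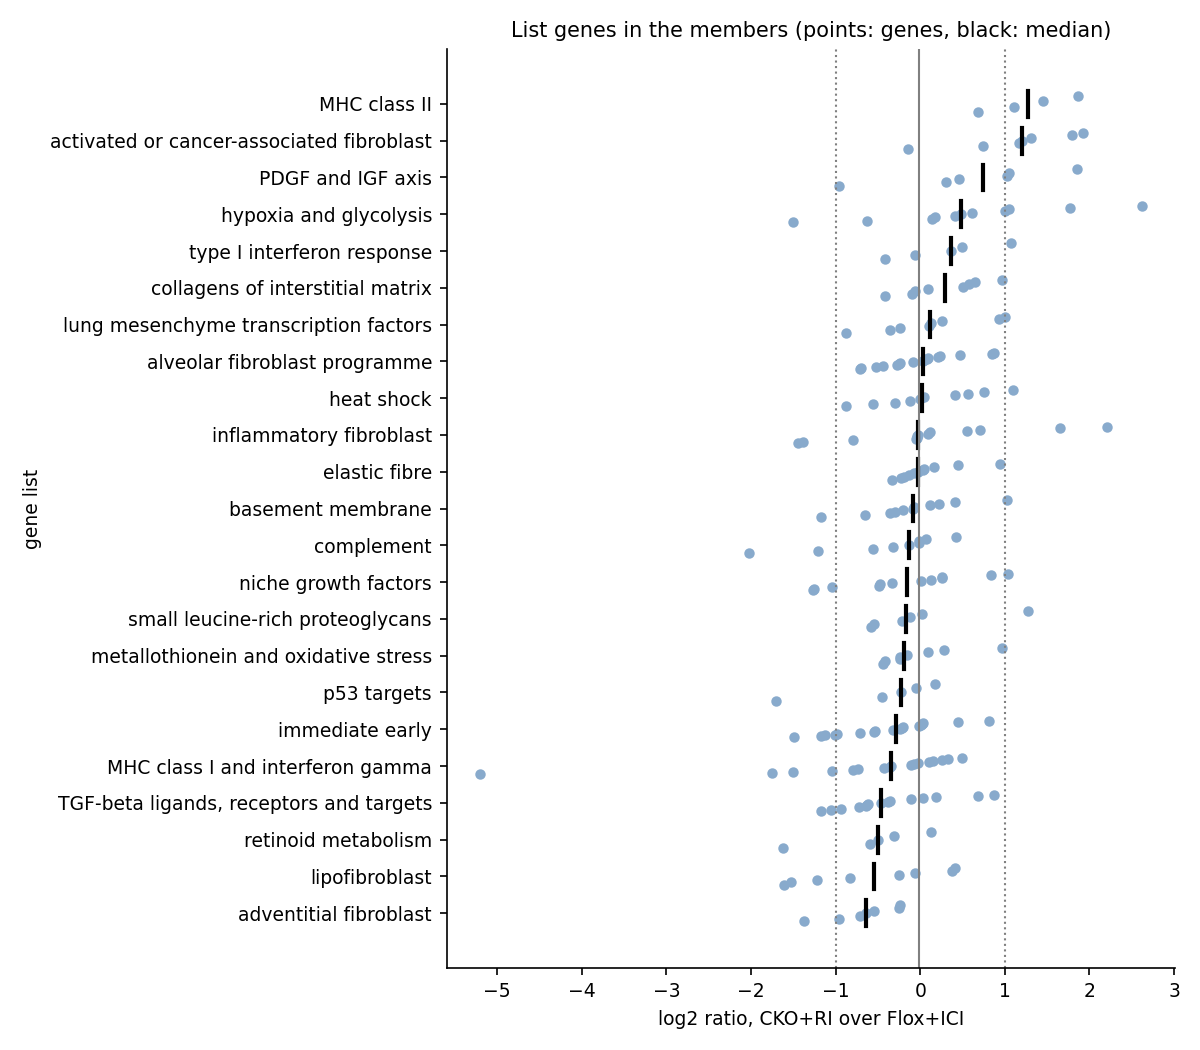
Log2 ratio of level in members, CKO+RI over Flox+ICI, for each measured gene (points) of the lists with 4 or more measured genes; black bars are list medians, the grey line is the median of all 3592 genes and dotted lines mark 2-fold. The activated fibroblast list has its median at 1.20 and the alveolar programme at 0.03.

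Single genes across the whole table were ranked by the interval bound nearest to 1. Higher in CKO+RI were Hp, Chl1, Ndnf, Heyl, Khdrbs3, Mmp14, Cd74, Csmd1, Runx1 and H2-Eb1. Hp, which encodes the haemoglobin scavenger haptoglobin, was at 171 CPM in 18.0% of members of Flox+ICI, 0 UMIs in Flox+RI and 957 CPM in 28.2% of members of CKO+RI, a ratio of 5.59 (3.89 to 8.24), while over all other kept barcodes its ratio was 0.196. Neutrophil barcodes held 1553 and 630.4 CPM of Hp, above the members in Flox+ICI and below them in CKO+RI. In CKO+RI 56 of its 156 UMIs came from 1 barcode. Pi16 barcodes held 101 and 253 CPM of Hp, a ratio of 2.50 in the same direction as the members. Contractile barcodes held 3912 and 274 CPM of Hp, and gate barcodes without Inmt or Tcf21 204 and 67.2 CPM. Heyl, a Notch target, and Ndnf, a secreted neurotrophic factor gene, had 3 UMIs each in Flox+ICI and 20 and 21 in CKO+RI, with ratios of 8.84 (2.62 to 46.5) and 9.29 (2.77 to 48.6). Khdrbs3, an RNA-binding protein gene, had a UMI in 7.87% and 35.9% of members (ratio 4.81, 2.14 to 12.2), and the adhesion molecule gene Chl1 in 5.62% and 12.8% (ratio 5.53, 2.90 to 11.4). Without the top barcode of each library the ratio was 9.55 for Chl1, and for Csmd1 it was 9.29 in place of 3.52 (2.07 to 6.21). Only 5 members of CKO+RI held Chl1 and 6 held Csmd1. In gate barcodes without Inmt or Tcf21 the ratios were 0.0489 and 0.216. In Pi16 barcodes Chl1 had 0 and 12 UMIs (Flox+ICI, CKO+RI) and Csmd1 a ratio of 1.86. Contractile barcodes held 610 and 165 CPM of Chl1 and 1791 and 1344 CPM of Csmd1.

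Higher in Flox+ICI were Lyz2, Mmp3, Mid1, Qrich1, Gpnmb, Zbtb16, Samhd1, Gfpt2, Iigp1 and Pnp. Mmp3, a secreted metalloproteinase, was at 564 CPM in 19.1% of members of Flox+ICI and 67.5 CPM in 7.69% of those of CKO+RI, 8.36-fold lower (4.51 to 17.2), with 56 of 122 UMIs in Flox+ICI from 1 barcode. Zbtb16, a zinc finger transcription factor, was spread over many members, at 929 CPM in 77.5% in Flox+ICI, 1 UMI in Flox+RI and 276 CPM in 61.5% in CKO+RI, 3.37-fold lower (2.43 to 4.76). Thinned to 1000 UMIs, it had a UMI in 56.0% and 29.7% of members. Its ratio was 0.181 in Pi16 fibroblasts and 0.177 over all other kept barcodes, so the lower level in CKO+RI was not confined to the members. Gfpt2, of the hexosamine pathway, was at 351 and 85.8 CPM, 4.09-fold lower (2.30 to 7.84), and Pnp, a purine nucleoside phosphorylase, at 582 and 172 CPM, 3.39-fold lower (2.24 to 5.31). Gpnmb, a macrophage gene, had 21 of 31 UMIs in Flox+ICI from 1 barcode. Without the top barcodes the ratio was 0.265 for Gpnmb and 0.336 for Lyz2, against 0.128 (0.0251 to 0.412) and 0.0939 (0.0593 to 0.142) with them.

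**Figure D5:**
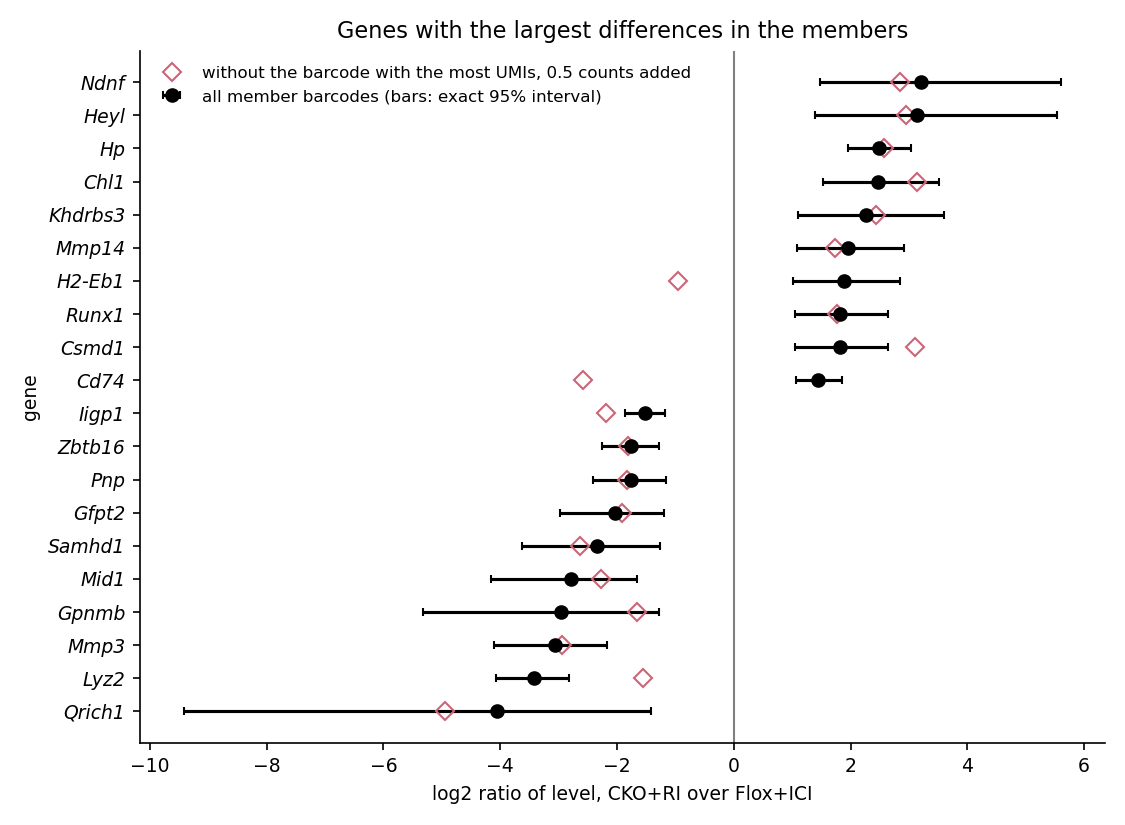
Log2 ratio of level in members, CKO+RI over Flox+ICI, for the 10 genes highest in each direction; black points with exact 95% intervals use all members, and open diamonds leave out the barcode with the most UMIs of the gene in each library, with 0.5 counts added. Cd74 and H2-Eb1 move from above 0 to -2.58 and -0.95, while Mmp14 and Zbtb16 stay near their values.

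Markers of other cell types were found in the members as well. Type 2 cell markers summed to 573 CPM in members of Flox+ICI and 331 CPM in CKO+RI, and Sftpc, their surfactant protein C gene, was at 429.9 and 258 CPM against 1135 and 820.5 CPM in neutrophil barcodes. The airway marker Scgb1a1 was at 569 and 178 CPM against 753 and 143 CPM. Neutrophil markers summed to 564 and 178 CPM, endothelial markers to 74.0 and 79.7 CPM, pericyte and smooth muscle markers to 227 and 123 CPM and mesothelial markers to 102 and 110 CPM. T and NK cell markers summed to 23.1 and 30.7 CPM, with 5 of 7 at 0, and B cell markers to 0 and 6.13 CPM, with 4 of 5 at 0. Tumour markers summed to 227 and 521 CPM, where 43 of 49 Sema3a UMIs in CKO+RI came from 1 barcode, and erythroid genes to 97.1 and 331 CPM.

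The single Flox+RI member held 1377 UMIs of 909 genes. It had 21 UMIs of Mgp, which encodes matrix Gla protein, 13 of Apoe, 12 of Dcn, 8 of Fmo2, 7 of the alveolar programme, 5 of them Mfap4, and 0 of Npnt or Limch1. Mgp was at 11715 CPM in Flox+ICI and 16655 CPM in CKO+RI. Adventitial genes gave 8 UMIs in this barcode, 4 of them Igfbp6. With 1 barcode, the comparisons of CKO+RI with Flox+RI and of Flox+RI with Flox+ICI could not be made across genes.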

How the data were processed

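The authors deposited UMI counts per gene and barcode, aligned to mm10 (GRCm38) with Cell Ranger 6.0 per the submitters' processing notes, which also list Seurat 5.0.3; per the file headers the version was 6.1.2. These counts were used as deposited, for 32285 genes in 3 libraries (1 per group). Members, gene lists and comparisons were chosen with earlier results of these data known. Python 3.11.15, scipy 1.17.1 and scanpy 1.11.5 were used. Shares have Clopper-Pearson intervals, CPM exact Poisson intervals and ratios exact conditional binomial intervals; the method was tested on simulated data. Genes needed 20 UMIs in the 2 libraries together; at least 2-fold is a description, not a test. Named genes were the 10 highest and 10 lowest by the bound nearest to 1, with a UMI in 10% of members and at least 0.5 times the level over all kept barcodes of the higher library, the 20 highest against all kept barcodes with a UMI in 25% of the members of each library, the 10 highest each way against Pi16 barcodes, and genes of the lists. Mitochondrial, ribosomal, haemoglobin and antigen receptor genes were left out of the ranking. Neutrophil barcodes (S100a8 and S100a9 at 20 or more UMIs together, with Ptprc) gave the free RNA background, except for genes that neutrophils may express themselves. No doublets were removed; removing the highest scrublet scores, at 0.8% per 1000 barcodes, was an alternative and took 2, 0 and 2 members. Sums of UMIs weigh deep barcodes more. Some genes that the rule names are not reported here.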

Additional observations from a re-analysis of the deposited data

How the results depend on the processing

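No paired analysis was possible because each group is 1 library. Shares moved with the rule: requiring an Xist UMI gave 0.458%, 0% and 0.266% (Flox+ICI, Flox+RI, CKO+RI), allowing any Pi16 level (chosen after seeing the data) gave 1.28% in Flox+ICI and 0.808% in CKO+RI, dropping the keratin and Prl2c3 limit (also chosen after seeing the data) gave 1.15% in CKO+RI, and 2 or more Inmt and Tcf21 UMIs gave 0% in Flox+RI. Thinning every barcode to 1000 UMIs before the rule left 86, 3 and 40 members, in the same order. The 205 genes 2-fold higher in CKO+RI became 131 with an Xist UMI required, 43 after thinning and 40 at 50 UMIs or more, and the 262 lower became 110 after thinning and 82 at 50 UMIs or more; fewer genes were tested in each of these. Directions reversed for MHC class II genes: the list median and Cd74 were both at -2.94 (log2) with doublets removed, and without the top barcode Cd74 was at -2.58 and H2-Eb1 at -0.95. Doublet removal took the 1 member of CKO+RI rich in macrophage and MHC class II UMIs but none of the 4 of Flox+ICI. With all of these left out, the ratio of Cd74 was 0.814 (0.267 to 2.30), and no direction is read from the reversal. The median of the activated fibroblast list ran from 0.79 to 1.80 and that of the alveolar programme from -0.03 to 0.20 over the alternatives run. Alternatives for comparisons of genes with Flox+RI were not run, since that library had 1 member. The stricter contractile class, with more than 5 UMIs of Acta2 and Tagln, was run only as a count of barcodes.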
